A study of Mus musculus with 73 samples.

Results

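Mammary tumors of the C3(1) Tag mouse were compared with normal mammary gland on 8 of the 73 arrays of the series, taken by their labelled source: 4 arrays of mammary tumor (tumor arrays 1 to 4) and 4 of normal gland (normal arrays 1 to 4). The tumors came from FVB mice of the model labelled C3(1)/SV40 T/t-antigen, and the normal glands from FVB mice labelled wild-type. On each array the tissue RNA (Cy3) was hybridised with Stratagene's Universal Reference RNA (Cy5), and a deposited value was read as the log2 of tissue over reference. The labels state neither the log base nor the direction; base 2 was taken from how many features passed the study's rule of p below 0.001 with a 2-fold change under each base, and the direction from tissue markers. The labels give no age, sex, tumor stage or reproductive state for either group, and do not say whether samples came from separate mice. The p-values therefore measure only a spread between samples, which may be technical. That spread was pooled over all 35 reference arrays, other tissues included. Among them are normal and tumor samples of prostate and seminal vesicle, whose titles read C57 in place of FVB. Where the mammary tumors were uneven, the standard error can be too small. A pair of other sets served for comparison: 4 lung tumors of FVB mice labelled CC10/SV40 T/t-antigen with 4 wild-type FVB lungs on the same kind of array, and 5 direct arrays on which C3(1)/SV40 T/t-antigen tumor of FVB mice (Cy5) was hybridised against wild-type FVB mammary gland (Cy3), read as log2 of tumor over gland. The labels do not say whether the direct arrays used the same tumors.

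The SV40 large T antigen binds the retinoblastoma protein and its relatives, which releases E2F transcription factors onto the genes of DNA synthesis, and it binds and disables p53. In this model it is expressed from the promoter of C3(1), a rat gene of a prostatic steroid-binding protein, which is active in mammary and prostate epithelium; every sample that carries the antigen here is a tumor, so antigen and tumor cannot be told apart. A normal mouse mammary gland is a thin tree of ducts, with luminal cells inside and basal cells outside, in a large pad of fat that also holds vessels, nerves, muscle at its edge and a lymph node. A tumor is dense with epithelial cells, so each comparison is also one of tissues of different make-up.

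The arrays carried 9596 cDNA features, of which 7486 were matched to 1 gene symbol. Values were present for 9368 to 9556 features on the normal arrays and for 9244 to 9572 on the tumor arrays, and the array medians lay between -0.014 and 0.009. The precision rests on 4 arrays a group, with a median standard error of 0.135 for the log2 change of a gene. The series' remaining normal tissues were FVB lung, and prostate and seminal vesicle titled C57, so a comparison with them also crosses strains. Against their average, the normal gland had higher values for all 5 measured adipocyte markers, 7 of 10 luminal markers, 4 of 5 basal, 3 of 4 T cell, 3 of 3 B cell and 4 of 4 macrophage markers. The same held for 2 of 3 endothelial, 4 of 5 fibroblast, 1 of 1 Schwann cell and 1 of 1 red cell markers, but for 1 of 6 of skeletal muscle. Of 6771 genes tested, 1123 (16.6%) were higher and 1362 (20.1%) lower in tumor at a Benjamini-Hochberg adjusted p below 0.05 (limma's moderated test, as everywhere below). The median change of all genes was -0.02, and the changes are log2 differences with their standard error.

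Genes that build the mitotic spindle and divide the cell were higher in tumor almost throughout. Of 21 kinesins and genes of cytokinesis and the centromere, 19 rose and none fell, with a median change of 1.28, and of 26 mitotic cyclins, kinases and checkpoint genes 21 rose and 1 fell, with a median of 1.07. For 19 of those 21 kinesin and cytokinesis genes every tumor array lay above every normal array, which held for 14% of all genes tested. Anln, the scaffold of the contractile ring that pinches dividing cells apart, had the largest rise of the comparison. Its log2 ratios were -2.70, -2.20, -2.45 and -2.00 on normal arrays 1 to 4 and 1.11, 0.58, 1.52 and 0.74 on tumor arrays 1 to 4. All normal arrays lay far below the reference RNA and all tumor arrays above it, a change of 3.33 ± 0.18 (SE; adjusted p = 1.76e-15), about 10-fold. Cyclin A2 (Ccna2), which drives S phase and entry into mitosis, read -2.17, -2.39, -2.03 and -1.64 in normal gland and 0.72, 0.43, 1.03 and 0.68 in tumor. Its groups did not overlap either, with a change of 2.77 ± 0.22 (adjusted p = 9.45e-12). The motor Kif11, which pushes the spindle poles apart, measured -2.28, -2.32, -2.17 and -2.32 in the normal samples against 0.38, -0.11, 0.18 and -0.13 in the tumors, a rise of 2.35 ± 0.22. The proliferation marker Mki67 had -1.30, -1.53, -1.10 and -1.53 and 0.47, 0.10, 0.24 and 0.24 and rose by 1.63 ± 0.28 (adjusted p = 1.73e-05), with no overlap between the groups.

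Ube2c went the other way. It encodes the ubiquitin-conjugating enzyme of the anaphase-promoting complex and rises in most dividing tissue, yet its single feature gave -0.33, 0.21, 0.26 and 0.055 in normal gland and -0.84, -0.61, -1.16 and -0.78 in tumor. The tumor arrays were all the lower ones (change -0.90 ± 0.17, adjusted p = 8.75e-05). The change in lung tumors, read with the same feature, was -0.84 ± 0.17. On the direct arrays none of the 19 mitotic genes tested there was called lower, with or without centring. The mitotic genes that were not called were Bub3, Cdc25a, Cdc25c and Zwint, at 0.37, 0.33, 0.16 and 0.003 (chosen after their values were seen).

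DNA replication followed mitosis. Of 35 replication genes 27 rose and 1 fell, with a median change of 0.92; the 1 that fell was Gins1, a subunit of the replicative helicase, at -0.38. Pola1, the catalytic subunit of DNA polymerase alpha, gave -1.02, -1.47, -1.16 and -1.62 on the normal arrays and 1.29, 0.97, 1.23 and 1.52 on the tumor arrays. The groups lay wide apart (change 2.57 ± 0.17, adjusted p = 8.4e-13) with a spread of less than 1 inside each. Mcm6, a ring subunit of the replicative helicase, had -1.27, -1.92, -1.75 and -2.08 against 0.91, 0.10, 0.75 and 0.87. Tumor array 2 was the lowest of the tumors and still well above every normal array, and the change was 2.41 ± 0.26. Its partner Mcm2 rose by 2.04 ± 0.22, the primase subunit Prim1 by 1.84 and Top2a, which untangles replicated DNA, by 1.83.

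Since T antigen acts on E2F through the Rb family, the promoters of these genes were read for an E2F core, taken as the letters TTCCCGC, the variant TTGGCGC or the variant TTCGCGC, on either strand and with overlaps counted, and for the cell-cycle homology region (CHR, TTTGAA on either strand) that DREAM and related complexes bind in mitotic genes. In the 250 bases before the start of transcription, an E2F core stood in 8 of 22 replication genes that rose and had a promoter in the table (36.4%), in 5 of 33 mitosis genes (15.2%) and in 3 of 31 adipocyte and lipid genes that fell (9.7%); 6.8% of all 27025 promoters and 10.8% of those of 5356 tested genes held one. A CHR stood in 9 of the 33 mitosis genes (27.3%), in 3 of the 22 replication genes (13.6%) and in 1 of the 31 adipocyte and lipid genes (3.2%), beside 16.3% of all promoters and 11.1% of those of tested genes. The CCAAT box (CCAAT, either strand) was found in 66.7% of the mitosis promoters, 54.5% of the replication promoters, 38.7% of the adipocyte promoters and 35.2% of those of tested genes. With the 50 bases after the start included, the E2F count of the replication genes went to 13 of 22 (59.1%), with 18.2% of the mitosis, 9.7% of the adipocyte and lipid and 13.3% of the tested genes' promoters. The CHR count of the mitosis genes went to 21 of 33 (63.6%), with 22.7%, 6.5% and 12.4% in replication, adipocyte and lipid, and tested genes. A match is a run of letters and does not show binding. Shown are the 2 replication genes with an E2F core and the 2 mitosis genes with a CHR that had the largest rises, from RefSeq (GRCm38.p6), each the 250 bases before the start, 5′ to 3′ on the gene's strand, with E2F cores (Pola1 and Mcm6) or CHR matches (Kif11 and Mki67) in capitals. They lie at chrX:93632156-93632405 (minus strand, Pola1), chr1:128359706-128359955 (minus strand, Mcm6), chr19:37376132-37376381 (plus strand, Kif11) and chr7:135716380-135716629 (minus strand, Mki67).
Pola1: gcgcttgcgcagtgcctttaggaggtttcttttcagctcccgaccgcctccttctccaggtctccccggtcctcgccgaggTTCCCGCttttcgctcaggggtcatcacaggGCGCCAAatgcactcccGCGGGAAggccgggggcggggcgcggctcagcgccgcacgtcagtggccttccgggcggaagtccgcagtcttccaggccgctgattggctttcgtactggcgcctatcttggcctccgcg
Mcm6: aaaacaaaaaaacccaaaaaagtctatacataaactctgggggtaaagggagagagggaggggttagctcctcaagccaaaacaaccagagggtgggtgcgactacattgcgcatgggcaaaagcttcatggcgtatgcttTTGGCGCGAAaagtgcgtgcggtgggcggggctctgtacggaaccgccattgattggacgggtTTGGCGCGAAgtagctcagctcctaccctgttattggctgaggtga
Kif11: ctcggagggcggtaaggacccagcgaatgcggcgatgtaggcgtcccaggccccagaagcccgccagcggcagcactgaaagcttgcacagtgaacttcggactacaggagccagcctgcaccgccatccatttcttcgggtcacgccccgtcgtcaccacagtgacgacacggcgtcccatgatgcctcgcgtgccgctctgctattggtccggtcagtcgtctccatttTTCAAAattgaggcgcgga
Mki67: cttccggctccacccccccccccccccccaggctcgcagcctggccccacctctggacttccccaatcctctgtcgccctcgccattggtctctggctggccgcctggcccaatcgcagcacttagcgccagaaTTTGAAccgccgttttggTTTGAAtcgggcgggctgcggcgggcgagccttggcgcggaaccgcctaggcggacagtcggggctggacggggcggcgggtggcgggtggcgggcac
The Pola1 sequence holds 3 E2F cores and Mcm6 holds 4, which overlap in pairs. Kif11 has 1 CHR close to its start, and Mki67 has 2.

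Supporting sets for the copying and packing of DNA moved with replication. Of 17 genes of nucleotide supply and histone mRNA 10 rose and none fell, among them thymidylate synthase Tyms (1.75 ± 0.26) and the ribonucleotide reductase subunit Rrm2 (1.11 ± 0.16). Of 14 cohesin and condensin genes 11 rose and none fell (median 0.81), led by the cohesin acetyltransferase Esco2 (2.03), the condensin core Smc4 (1.99 ± 0.26) and the cohesin ring member Rad21 (1.48 ± 0.17). Of 22 chromatin and HMG genes 11 rose and 1 fell; the helicase Hells rose by 2.35 and the methylation cofactor Uhrf1 by 1.70, and Ezh1 fell by 0.43. Of 21 genes of DNA repair and checkpoints 12 rose and none fell, with a median of 0.33. Brca1, central to repair of double-strand breaks, gave -1.47, -1.11, -1.61 and -1.39 in normal gland and 0.64, -0.069, 0.78 and 0.65 in tumor. Tumor array 2 was again the lowest tumor, and the change was 1.90 ± 0.17 (adjusted p = 1.04e-10). Rad51ap1 rose by 1.28 and Blm by 0.75. The repair count fell to 7 of 21 without normal arrays 3 and 4 together, and also with the replicate number as a block.

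**Figure D1:**
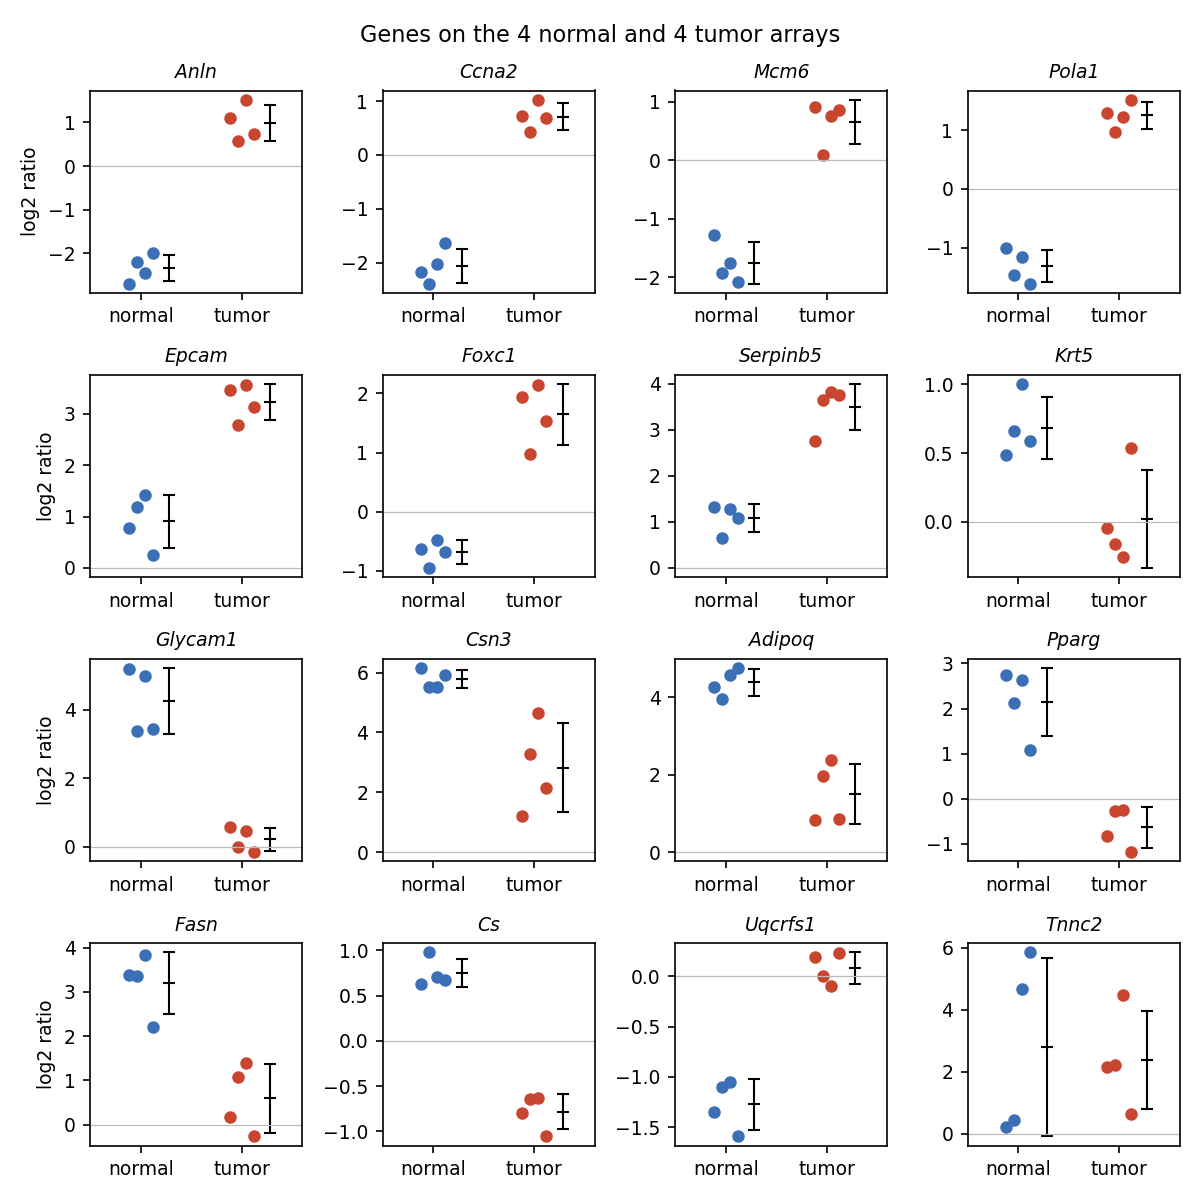
Log2 ratio of tissue over reference RNA for 16 genes on the 4 normal (blue) and 4 tumor (red) arrays, with the mean and SD of each group in black; each panel has its own axis. Anln, Ccna2, Mcm6 and Pola1 separate completely upward, Glycam1, Adipoq, Pparg, Fasn and Cs downward, while Krt5 overlaps and Tnnc2 varies more within the groups than between them.

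The genes that T antigen acts through in the G1 phase were mixed. Of 20 genes of Rb, E2F and G1 control 6 rose and 2 fell (median 0.19). Rb1 itself, the retinoblastoma gene, gave 0.98, 0.84, 0.88 and 0.47 in normal gland and 0.93, 0.92, 1.07 and 1.19 in tumor, with overlapping groups (change 0.23 ± 0.17, adjusted p = 0.301). Its relative Rbl1 (p107), which is itself an E2F target, read -0.51, -0.66, -0.52 and -1.02 in the normal samples and 0.64, 0.47, 0.52 and 0.74 in the tumors. All tumors were above all normal arrays, a rise of 1.27 ± 0.12 (adjusted p = 6.81e-10). Skp2, which marks the cyclin kinase inhibitor p27 for destruction, went from -1.77, -1.56, -1.95 and -1.47 to -0.22, -0.56, -0.48 and 0.092 and rose by 1.39 ± 0.20. Mycn rose by 0.69. The 2 that fell were cyclin D2 (Ccnd2), at -0.45, -0.28, -0.26 and -0.58 against -2.03, -1.95, -2.18 and -2.50, a change of -1.77 ± 0.23 with no overlap, and the kinase inhibitor Cdkn1c, at -0.78 ± 0.22 (-0.52 and not called without normal arrays 3 and 4). Ccnd2 was not called on the direct arrays, where it measured 0.14 ± 0.26 (adjusted p = 0.694). Myc was at -0.087, E2f3 at 0.20 and Ccnd1 at -0.86 ± 0.36 (adjusted p = 0.0589), none of them called. After quantile normalization Rb1 (0.43) and Ccnd1 (-1.30) passed the test.

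Genes that p53 switches on were called about as often as genes at large (16.6% higher and 20.1% lower). Of 18 measured members of the p53 list 3 rose and 4 fell, with a median of -0.08; 1 fell without tumor array 1 and 2 without tumor array 4. Cdkn1a, the p21 kinase inhibitor and best known p53 target, gave -2.48, -1.66, -2.23 and -0.88 in normal gland and -0.91, -0.70, -1.66 and -0.79 in tumor. The groups overlapped, and the rise of 0.80 ± 0.27 (adjusted p = 0.0209) was not called without normal array 1 (0.57), normal array 3 (0.66), tumor array 2 (0.69) or tumor array 4 (0.72). The target Phlda3, an inhibitor of Akt, had 0.74, 1.30, 1.44 and 0.44 and -0.48, -0.62, -0.86 and -0.33, a clear separation downward (-1.55 ± 0.16, adjusted p = 4.24e-09), but measured 0.24 ± 0.22 on the direct arrays (adjusted p = 0.402). Thbs1, an inhibitor of vessel growth, rose by 1.16 ± 0.31. Mdm2, the p53 ubiquitin ligase, was at 0.10 ± 0.11 (adjusted p = 0.518), Gadd45a at 0.45 and Zmat3 at 0.14, not called.

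Epithelial adhesion genes were higher in tumor. Of 20 genes of epithelial junctions 13 rose and none fell, with a median of 0.57. Epcam, an adhesion molecule of the epithelial surface, gave 0.78, 1.19, 1.42 and 0.25 on the normal arrays and 3.46, 2.79, 3.55 and 3.12 on the tumor arrays. Every tumor lay more than 1 above the highest normal array (change 2.32 ± 0.30, adjusted p = 1.94e-07), and normal array 4 was the lowest. The tight junction gene Cldn1 read 0.79, 0.38, 0.55 and 0.43 against 2.31, 1.28, 3.06 and 2.54, a rise of 1.76 ± 0.23. The gap junction gene Gja1 had -0.14, -0.33, -0.11 and -0.45 against 1.96, 1.06, 2.85 and 1.03 and rose by 1.98 ± 0.27, with tumor array 3 the highest in both genes. E-cadherin (Cdh1) rose by 1.54 ± 0.31, or by 1.02 without normal array 4, and Cldn7 by 1.20 ± 0.19.

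Within the epithelium, luminal and basal genes did not shift as blocks. Of 19 genes of luminal identity and hormone response 4 rose and 6 fell, with a median of -0.35; the falls were 3 without normal array 2, without tumor array 1 and without tumor array 3. The epithelial transcription factor Ehf rose by 1.32 ± 0.32 and the secretory protein Agr2 by 1.25 ± 0.21. Tnfsf11 (RANKL), the paracrine signal that hormone-receptor cells send out, gave 2.29, 2.74, 2.57 and 0.46 in normal gland, and 0.67, 0.63 and 0.56 on tumor arrays 1 to 3 (tumor array 4 had no value). Normal array 4 lay below these tumors, and the change was -1.39 ± 0.29 (adjusted p = 0.000442). Cited1, a coactivator of estrogen response, fell by 1.35. The estrogen receptor Esr1 was at 0.054, Foxa1 at -0.28, Gata3 at -0.40 ± 0.26 and the luminal keratin Krt8 at 0.23 ± 0.19 (adjusted p = 0.38), none called. The basal and squamous list had more rises: 13 of 30 rose and 2 fell, with a median of 0.27. The transcription factor Foxc1, a marker of basal-like breast cancer, read -0.64, -0.95, -0.47 and -0.67 in the normal samples and 1.94, 0.98, 2.14 and 1.53 in the tumors. The groups stood clearly apart (change 2.33 ± 0.25, adjusted p = 7.41e-09). The serpin family member maspin (Serpinb5), made by basal cells, gave 1.33, 0.65, 1.27 and 1.07 and 2.76, 3.64, 3.82 and 3.76 and rose by 2.41 ± 0.30. Sox9, a factor of progenitor cells, had 0.67, 0.15, 0.83 and 0.045 against 2.35, 2.39, 2.56 and 2.13, a rise of 1.94 ± 0.18.

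Krt5 and Trp63, which define basal cells, were not among those risers. Krt5, the basal keratin, gave 0.48, 0.66, 1.00 and 0.59 in normal gland and -0.045, -0.16, -0.26 and 0.54 in tumor, a change of -0.67 ± 0.18 in which tumor array 4 overlapped the normal samples. It was not called without normal arrays 3 and 4 (-0.55) or without tumor arrays 2 and 3 (-0.44). Trp63, the master factor of basal cells, was at 0.065 ± 0.33 (adjusted p = 0.911) and Krt15 at -0.21. Krt17 rose by 0.69, but the call was lost without tumor array 4 (0.44), normal array 1 (0.63), normal array 2 (0.59) or normal array 4 (0.64). Contractile genes of myoepithelium and smooth muscle went 2 up and 4 down of 14, beside 16.6% and 20.1% of all genes, with Acta2 at -0.94 ± 0.26. Of 13 genes of mesenchymal transition 1 rose and 3 fell (5 after quantile normalization), the falls near the share of all genes. The 3 that fell were Zeb1 (-1.14 ± 0.20), Zeb2 (-0.92) and Sparc (-1.24 ± 0.29). On the direct arrays 3 of 10 rose and 1 fell with centring, against 5 and 1 without it. Twist1 was at -0.46, Snai1 at 0.033 and Cdh2 at 0.12, not called.

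Most milk genes were lower in tumor. Of 16 genes of milk proteins and secretion 10 fell and 2 rose (median -0.77). The risers were the whey protein Wap, at 0.19, 0.043, 0.067 and 0.27 in normal gland and 0.51, 0.85, 0.42 and 0.091 in tumor, overlapping groups near the reference RNA (change 0.33 ± 0.13, adjusted p = 0.0419), and Lcn2 (1.04 ± 0.40, adjusted p = 0.0371). Both calls were lost when single arrays were left out: the Lcn2 call without any one array other than tumor 2 (adjusted p up to 0.137), and the Wap call without any one array other than tumor 4 or normal 4 (up to 0.23). Glycam1, a mucin-like milk protein also made by lymph node vessels, had the largest fall of the comparison: 5.19, 3.39, 4.98 and 3.43 in normal gland and 0.56, -0.001, 0.45 and -0.16 in tumor. The tumors lay near the reference RNA, and the change of -4.03 ± 0.24 (adjusted p = 2.48e-14) is about 16.4-fold lower. Kappa-casein (Csn3) gave 6.14, 5.52, 5.52 and 5.92 in the normal samples, which were close together. Among the tumors it ranged widely, 1.21, 3.29, 4.66 and 2.14 (change -2.95 ± 0.35, adjusted p = 3.91e-08). Beta-casein (Csn2) was at 4.67, 5.04, 5.00 and 4.09 in normal gland, and at 0.84, 2.55 and 4.73 on tumor arrays 1 to 3, with no value on tumor array 4. Tumor array 3 reached the normal range, and the change of -1.99 ± 0.40 (adjusted p = 0.00018) was -0.93 and not called after quantile normalization. For both caseins the standard error comes from the pooled spread and does not reflect how uneven these tumors were. The secretion factor Btn1a1, a coat protein of milk fat globules, read 2.52, 2.45, 2.25 and 1.69 against -0.46, -0.47, 0.073 and -0.24, a change of -2.50 ± 0.14, but was higher on the direct arrays (1.22 ± 0.31, adjusted p = 0.00199). After quantile normalization 7 of the 16 fell and 3 rose.

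Fat cell genes were lower in tumor almost throughout. Of 20 genes of adipocyte identity 16 fell and none rose (median -1.81), as did 10 of 12 genes of lipid uptake, storage and lipolysis (median -1.32). For 14 of those 20 and 10 of those 12 every tumor array lay below every normal array, which held for 17.9% of all genes tested. Adiponectin (Adipoq), a hormone made by fat cells, gave 4.26, 3.97, 4.59 and 4.75 in normal gland and 0.83, 1.97, 2.37 and 0.85 in tumor. The groups were clearly apart, and tumor arrays 2 and 3 kept the higher values (change -2.88 ± 0.22, adjusted p = 6.82e-12). Pparg, the master regulator of fat cells, read 2.74, 2.12, 2.63 and 1.09 against -0.82, -0.28, -0.24 and -1.19. It changed by -2.77 ± 0.24 (adjusted p = 4.81e-11), and normal array 4 was the lowest normal sample. Lipoprotein lipase (Lpl) had 3.62, 3.46, 3.72 and 3.46 against 0.48, 2.47, 2.39 and -0.22 and fell by 2.29. The caveolin Cav1 changed by -2.84, Cebpa by -2.11, the lipid droplet proteins Plin4 by -2.64 and Cidec by -2.18, and the hormone-sensitive lipase Lipe by -2.22. The mean of the adipocyte list ran from 1.84 to 2.10 on the normal arrays and from 0.18 to 0.85 on the tumor arrays. In bulk tissue, fewer fat cells and less of these transcripts in each fat cell cannot be told apart.

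Enzymes that make fat had the lowest median of the 52 lists. Of 16 genes of fatty acid synthesis 14 fell and none rose, with a median of -2.22, and the list mean went from between 1.77 and 2.57 in normal gland to between -0.06 and 0.82 in tumor. Fasn, the fatty acid synthase, gave 3.39, 3.36, 3.83 and 2.21 on the normal arrays and 0.17, 1.08, 1.40 and -0.27 on the tumor arrays. Normal array 4 was the lowest of its group and tumor array 3 the highest of the other, still apart (change -2.60 ± 0.24, adjusted p = 1.82e-10). The desaturase Scd1 had 5.42, 4.38, 4.86 and 4.48 against 1.26, 1.86, 2.95 and 1.02, a change of -3.01 ± 0.36. Pyruvate carboxylase (Pcx), which feeds citrate to this pathway, read 3.34, 3.32, 3.93 and 2.74 in the normal samples and 0.30, 0.33, 0.96 and 0.11 in the tumors, a change of -2.91 ± 0.18. Thrsp, a lipogenic regulator, changed by -3.43, malic enzyme Me1 by -2.74, the citrate carrier Slc25a1 by -2.47, the transketolase Tkt by -2.36 and the insulin-regulated glucose carrier Slc2a4 by -2.30. The 2 members not called were Elovl3 (-0.008) and Pdhb (-0.005). Cholesterol synthesis had 6 falls and no rise among 10 genes, with a smaller median of -0.51; Hmgcs1 fell by 1.32, while Sqle and Cyp51 were at -0.03 and -0.009.

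Mitochondrial genes were lower across several pathways. Of 21 genes of fatty acid oxidation 15 fell and none rose (median -0.89), of 18 of the citrate cycle and amino acid breakdown 16 fell and none rose (median -0.99), and of 32 of the respiratory chain and ATP synthase 29 fell and 1 rose (median -0.88). Citrate synthase (Cs), the entry to the cycle, gave 0.63, 0.98, 0.71 and 0.67 in normal gland and -0.79, -0.64, -0.64 and -1.06 in tumor. The 4 values of each group lay close together and on opposite sides of the reference (change -1.53 ± 0.11, adjusted p = 1.39e-12). The beta subunit of ATP synthase (Atp5b) read 0.61, 0.82, 0.40 and 0.95 against -0.87, -0.68, -0.18 and -0.74, a change of -1.31 ± 0.23. Hadh, of fatty acid oxidation, changed by -1.76 ± 0.13, Idh1 by -1.71 ± 0.17, the succinate dehydrogenase subunit Sdhb by -1.23 ± 0.15 and the cytochrome oxidase subunit Cox6a1 by -1.33 ± 0.20. Uqcrfs1, the Rieske protein of complex III, was the single riser of the respiratory list: -1.35, -1.10, -1.05 and -1.59 in the normal samples and 0.19, 0.003, -0.10 and 0.23 in the tumors, a rise of 1.36 ± 0.16 (adjusted p = 4.86e-08) with no overlap. Adipocyte markers fell on the same arrays, 5 of 5, with list means of 1.84 to 2.10 in normal gland and 0.18 to 0.85 in tumor, and their part in the falls of mitochondrial, ribosomal and detoxification genes was not tested.

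Ribosomal protein and detoxification genes were lower as well. Of 23 cytosolic ribosomal protein genes 16 fell and none rose (median -0.64; 13 to 19 over the processing alternatives). Rplp1, of the ribosomal stalk, gave -0.84, -0.26, -0.18 and -1.03 in normal gland and -1.48, -1.49, -1.91 and -1.76 in tumor, a change of -1.08 ± 0.24 (adjusted p = 0.000444). Normal arrays 1 and 4 were nearer to the tumors than arrays 2 and 3, as they were for the whole ribosomal list, whose mean ran from -0.92 to -0.28 in normal gland and from -1.34 to -0.98 in tumor. The mitochondrial ribosome and import list had 12 falls and no rise among 34 genes. Translation factors and nucleolar genes did not follow, with 4 rises and 5 falls among 25 (median -0.04), near the shares of all genes. Of 55 genes of xenobiotic, aldehyde and glutathione metabolism 30 fell and 5 rose (median -0.55). Aldehyde dehydrogenase Aldh2 read 0.98, 1.65, 1.54 and 1.52 against -1.02, -0.56, -0.58 and -0.62 (change -2.12 ± 0.19), the glutathione transferase Gstz1 changed by -2.14 ± 0.19 and the carbonic anhydrase Car3 by -2.54. The risers included Cyp1b1 (1.27) and the peroxiredoxin Prdx4 (1.02), both chosen after their values were seen. Of 16 genes of glycolysis, hypoxia and lactate 3 rose (5 after centring each array) and 6 fell, with a median of -0.06. The shares of all genes were 16.6% and 20.1%. Of these genes 3 fell at least 2-fold, Pfkfb3 (-1.61) and Aldoa (-1.38) the furthest, and none rose as much. Pgk1 had the largest rise, at 0.98.

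**Figure D2:**
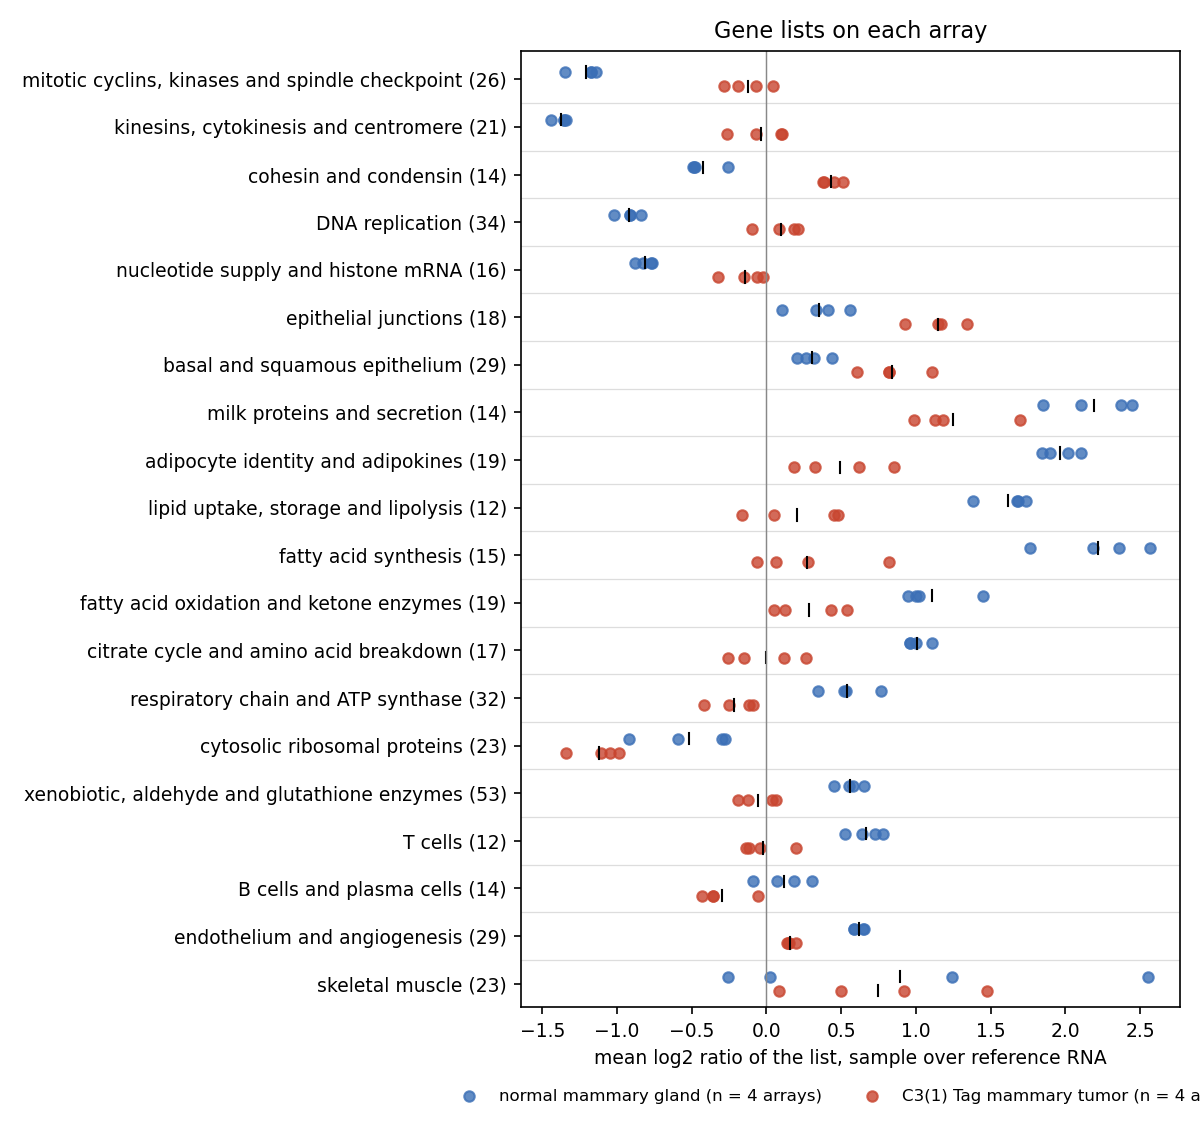
Mean log2 ratio of 20 gene lists on each normal (blue) and tumor (red) array, with the group mean as a black tick and the number of genes with a value on every array in brackets. Division and replication lists separate upward, fat, fatty acid synthesis and mitochondrial lists downward, and the skeletal muscle list, from -0.26 to 2.55 in normal gland, spreads across both groups.

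Lymphocyte and vessel genes were lower in tumor. Of 16 T cell genes 12 fell and none rose (median -0.81), and of 16 B cell genes 9 fell and 2 rose (median -0.55). The T cell receptor chain Cd3g gave 1.12, 0.98 and 0.77 on normal arrays 1 to 3, with no value on normal array 4, and -0.10, -0.30, -0.31 and -0.25 on the tumor arrays. All tumors lay below (change -1.20 ± 0.14, adjusted p = 5.7e-08). The B cell receptor chain Cd79b read 0.92, 0.98, 0.66 and 0.17 against -0.59, -0.46, -0.81 and -1.29, a change of -1.47 ± 0.22. The T cell list mean ran from 0.53 to 0.78 in normal gland and from -0.14 to 0.20 in tumor. Of 9 MHC class II genes 6 fell and 1 rose, or 4 fell after quantile normalization; H2-Aa changed by -1.68 ± 0.37 (-0.55 and not called after quantile normalization) and the invariant chain Cd74 by -1.44. Of 36 genes of macrophages, neutrophils and mast cells 8 fell, near the share of all genes, and 2 rose; after quantile normalization 10 fell and 7 rose. None of the 4 measured macrophage markers was called: Cd68 was at -0.047, C1qa at -0.45, C1qb at 0.15 and Adgre1 at 0.18. Of 29 endothelial genes 15 fell and 2 rose (median -0.41). VE-cadherin (Cdh5) gave 2.20, 2.26, 2.10 and 2.35 in normal gland and 0.44, 1.07, 0.79 and 0.84 in tumor, a clear separation (-1.45 ± 0.25, adjusted p = 1.79e-05), and the VEGF receptor Kdr fell by 1.10.

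Matrix genes changed in both directions. Of 36 genes of fibrillar collagens and matrix 11 rose and 13 fell, or 8 and 6 without normal arrays 3 and 4 and 11 and 8 without tumor array 3. The actin-severing protein gelsolin (Gsn) gave 2.58, 3.01, 3.32 and 3.18 in normal gland and 0.12, 0.58, 1.03 and -0.029 in tumor, a change of -2.60 ± 0.25 (adjusted p = 6.17e-10). Col1a1, the main chain of type I collagen, was at -0.50 ± 0.27 (adjusted p = 0.141), not called. Of 40 genes of basement membrane, laminins and integrins 9 rose and 15 fell. On the direct arrays 11 of 38 rose and 6 fell with centring, against 21 and 1 without it. Among the falls were the collagen chain Col4a2 at -1.67 ± 0.20, nidogen Nid1 at -1.57 ± 0.26, the laminin chain Lama2 at -1.15 and the integrin Itgb7 at -1.02. Syndecan 1 (Sdc1), a heparan sulfate proteoglycan, read -1.42, -0.86, -0.71 and -0.55 against 1.28, 0.87, 1.56 and 1.35, a rise of 2.15 ± 0.15 (adjusted p = 1.18e-12), with every tumor above every normal array. The hyaluronan receptor Cd44 gave -1.17, -1.60, -1.42 and -1.85 against -0.052, 0.20, -0.35 and -0.058 and rose by 1.45 ± 0.23, and the laminin chain Lamb3 by 0.85 ± 0.18.

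Among 44 extracellular proteases and their inhibitors 10 rose and 9 fell, the latter near the share of all genes. The rises included the inhibitors Timp1, at -1.71, -1.58, -1.61 and -0.78 in normal gland and 0.18, 0.33, -0.41 and 0.50 in tumor (change 1.57 ± 0.31), and Slpi (1.47). Of the serpin family Serpinb5 rose and Serpinf1 fell by 1.11. The gelatinase Mmp9 fell from 3.26, 2.73, 3.13 and 0.84 to 0.52, 0.33, 0.035 and 0.38, a change of -2.18 ± 0.32 (adjusted p = 1.88e-06), with normal array 4 nearest to the tumors. The ectonucleotidase Nt5e (CD73), which makes adenosine, gave 0.32, 0.41, 0.34 and -0.001 against 3.02, 2.14, 3.94 and 3.07, a rise of 2.77 ± 0.31. Of 29 S100, annexin, galectin and Ly6 genes 10 rose and 3 fell. Galectin 3 (Lgals3) had -2.41, -2.26, -2.37 and -2.63 in the normal samples and 0.24, -0.34, -0.42 and 0.23 in the tumors, a rise of 2.35 ± 0.25, and S100a6 rose by 2.03 ± 0.29.

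Ligands and feedback genes of the Ras and MAP kinase pathway were among those higher in tumor. Of 36 members of that list, early response genes included, 12 rose and 3 fell, with a median of 0.20; the falls were Rasgrp1, Klf2 and Dusp2, at -1.22, -0.94 and -0.74. The ERK phosphatase Dusp6, a feedback target of the pathway, read -0.69, -0.92, -0.67 and -0.88 in normal gland and 0.52, -0.057, 0.65 and 1.57 in tumor. Tumor array 4 was the highest and tumor array 2 the lowest, all above the normal arrays (change 1.46 ± 0.30, adjusted p = 0.000186). The EGF receptor ligand Tgfa gave -0.37, -0.35, -0.24 and -0.74 against 1.32, 0.10, 1.35 and 1.54 and rose by 1.50 ± 0.24. Hbegf, another such ligand, rose by 0.82 ± 0.16 and the target Ets2 by 1.02 ± 0.20. Among the core members Nras was at 0.22, Braf at 0.29, Map2k1 at 0.093 and Mapk9 at 0.018, not called. Of 26 genes of PI3 kinase and IGF signalling 3 rose (6 after quantile normalization) and 8 fell, among the falls Igf1 at -1.50 and Akt2 at -0.95.

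The direct arrays put the same tumor model against normal gland without a reference RNA. After each array was centred on its median, 1273 of 5768 genes (22.1%) were higher and 1140 (19.8%) lower in tumor. The medians of the 5 arrays lay between 0.037 and 0.663 before centring, and the split depends on that step: 52.8% of the called genes were higher with it, 90.6% without it (2413 higher and 250 lower) and 67.4% after quantile normalization (1503 higher and 728 lower). Of all genes that had risen on the reference arrays, 991 were tested on the direct arrays, where 761 had the same sign, 433 (43.7%) were called in the same direction and 49 in the opposite one. Of those that had fallen, 1183 were tested, 841 had the same sign, 433 (36.6%) were called the same way and 93 the opposite way. The shares were higher among large changes. Of the genes that had risen at least 2-fold, 196 were tested, 174 had the same sign, 138 (70.4%) were called the same way and 6 the opposite way. Of those that had fallen at least 2-fold, 266 were tested, 239 had the same sign, 169 (63.5%) were called the same way and 3 the opposite way. Division genes rose there too, 16 of 19 mitotic genes, 13 of 20 kinesin genes and 18 of 28 replication genes (17, 16 and 22 without centring). The falls among them were 2 replication genes, and none without centring. Of 17 junction genes 9 rose, and of 27 basal genes 13 rose and 1 fell (12 and 18 rises and no fall without centring). Fat and respiratory chain genes fell, 12 of 16 adipocyte genes, 9 of 10 of fatty acid synthesis and 24 of 28 of the respiratory chain (10, 7 and 16 without centring). In each of these lists 1 gene rose, with and without centring. Cholesterol synthesis did not fall as a list there. Of its 8 genes tested 3 rose and 3 fell with centring (median 0.22), against 4 and 2 without it.

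Single genes gave a closer view of this second measurement. Lgals3 read 3.49, 3.13, 1.95, 3.43 and 4.07 on direct arrays 1 to 5, all positive (mean 3.21 ± 0.39, adjusted p = 8.24e-08). Sdc1 gave 4.06, 2.66, 1.75, 2.56 and 3.02 (mean 2.81 ± 0.27), and Adipoq -2.64, -4.01, -2.53, -3.15 and -2.79 (mean -3.02 ± 0.28). Csn2, uneven among the reference tumors, was low on every direct array at -4.74, -4.07, -3.71, -4.85 and -4.47 (mean -4.37 ± 0.55). The milk list as a whole was not lower there. Of 12 milk genes 4 fell and 1 rose with centring (median -0.05), against 3 and 4 without it. Other genes did not carry over. Btn1a1 was positive on every direct array, at 1.31, 0.45, 2.33, 0.14 and 1.89. Gsn had -0.22 ± 0.30 (adjusted p = 0.58), Cyp2e1 0.053 ± 0.28 and Timp1 -0.029 ± 0.26, against changes of -2.60 ± 0.25, -2.46 ± 0.29 and 1.57 ± 0.31 on the reference arrays. Ribosomal, T cell and endothelial lists depended on the centring: 4 of 21 ribosomal genes fell and none rose with it, against none and 1 without it. Of 14 T cell genes 4 fell and none rose with it, against none and 3 without it, and of 26 endothelial genes 8 fell and 7 rose with it, against none and 12 without it. Skeletal muscle genes, of which 1 of 23 was called on the reference arrays, fell in 16 of 23 cases on the direct arrays with and without centring (median -1.26 centred).

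**Figure D3:**
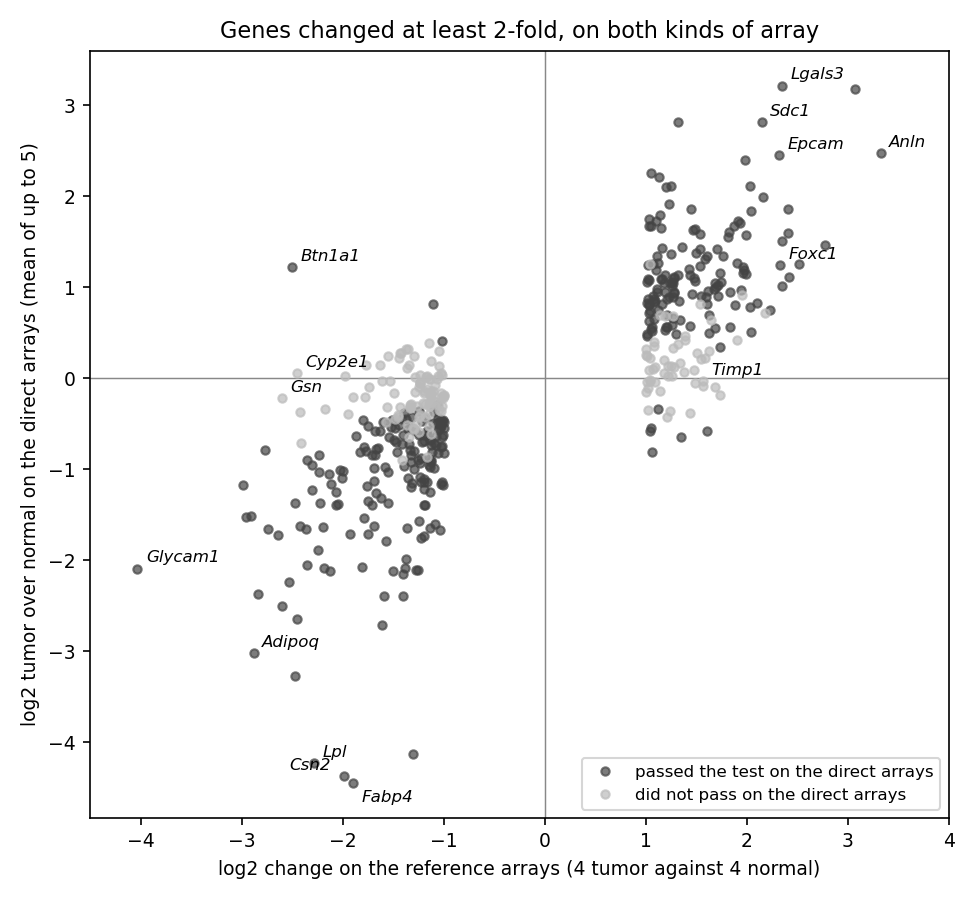
Log2 change of genes that changed at least 2-fold on the reference arrays (x axis) against their mean log2 ratio, tumor over normal gland, on the direct arrays after centring (y axis), with genes called on the direct arrays in dark grey. Of 196 risers 174 and of 266 fallers 239 kept their sign, while Btn1a1, lower on the reference arrays, lies above 0 on the y axis.

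Lung tumors driven by the same antigen from the CC10 promoter, active in airway epithelium, gave the comparison with another tissue. The difference between the changes of both tissues was tested gene by gene. In lung itself 16.2% of 6774 genes rose and 20.4% fell. Of 6768 genes 824 (12.2%) had a more positive and 811 (12%) a more negative change in mammary gland, here called higher and lower. Among division genes 3 of 26 mitotic and 3 of 21 kinesin genes had a lower change in mammary gland, near the share of all genes, and none a higher one; of 35 replication genes 2 were higher and 3 lower. Kif11 rose by 3.27 ± 0.22 in lung, with a difference of -0.93 ± 0.31 (adjusted p = 0.0286), and Anln by 3.83 ± 0.18, with a difference of -0.51 ± 0.25 (adjusted p = 0.144).

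Fat and mitochondrial metabolism made the largest contrast between the tissues. The change was lower in mammary gland for 14 of 16 genes of fatty acid synthesis, 10 of 20 of adipocyte identity, 15 of 18 of the citrate cycle, 23 of 32 of the respiratory chain and 17 of 23 ribosomal proteins, and higher for none of them. Pparg measured 0.26 ± 0.24 in lung (difference -3.03 ± 0.34, adjusted p = 6.19e-08), Fasn -0.34 ± 0.24 (difference -2.27 ± 0.34), Cs 0.067 ± 0.11 (difference -1.60 ± 0.15) and Atp5b 0.43 ± 0.23 (difference -1.74 ± 0.32). Rbp4, the retinol carrier made by fat cells, had the largest difference of all. It fell from 4.04, 3.96, 4.57 and 3.14 to 0.62, 0.66, 1.75 and 0.84 in mammary gland (-2.96 ± 0.34) and rose by 1.81 ± 0.34 in lung, a difference of -4.77 ± 0.48 (adjusted p = 1.43e-08). In lung 2 of 20 adipocyte genes rose and 7 fell, beside 16.2% and 20.4% of all genes there, against none and 16 in mammary gland, and the part of fat cells in these differences was not tested. Uqcrfs1 rose in both, by 1.38 ± 0.16 in lung, with a difference of -0.029 ± 0.23 (adjusted p = 0.941).

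Signalling, surface and matrix genes made the contrast in the other direction. The change was higher in mammary gland for 14 of 36 genes of the Ras and MAP kinase list (1 lower), 17 of 44 proteases and inhibitors (3 lower), 10 of 29 S100 and annexin genes (1 lower), 14 of 36 matrix genes (3 lower) and 9 of 40 of the basement membrane (none lower). A higher change need not be a rise in mammary gland. In lung 20 of the 36 matrix genes fell and none rose, with medians of -0.65 there and -0.18 in mammary gland. Of the 40 basement membrane genes 20 fell and 2 rose in lung (medians -0.49 and -0.25). Of the 44 proteases and inhibitors 19 fell and 4 rose there (medians -0.39 and -0.04). Dusp6 fell by 1.50 ± 0.30 in lung and rose in mammary gland, a difference of 2.96 ± 0.42 (adjusted p = 3.95e-06). Ets2 (-1.15 ± 0.20 in lung), Hbegf (-0.67 ± 0.16) and Slpi (-1.20 ± 0.37) also changed in opposite directions. The prohormone-cutting enzyme Cpe went from -1.36, -1.43, -1.34 and -0.94 to 1.10, 0.36, 1.21 and 0.90 in mammary gland (2.16 ± 0.17) and changed by -1.15 ± 0.17 in lung (difference 3.31 ± 0.24). Nt5e measured -0.57 ± 0.31 in lung, Foxc1 -0.14 ± 0.25 and Cd44 -0.36 ± 0.23, with differences of 3.35 ± 0.44, 2.47 ± 0.36 and 1.80 ± 0.32. Of the p53 list 11 of 18 fell in lung and none rose, beside 20.4% and 16.2% of all genes there. Cdkn1a changed by -0.96 ± 0.27 there, a difference of 1.75 ± 0.39 from mammary gland (adjusted p = 0.00107). Luminal genes leaned the other way, with 8 of 19 lower in mammary gland and 1 higher; Krt8 rose by 1.58 ± 0.19 in lung (difference -1.35 ± 0.27).

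**Figure D4:**
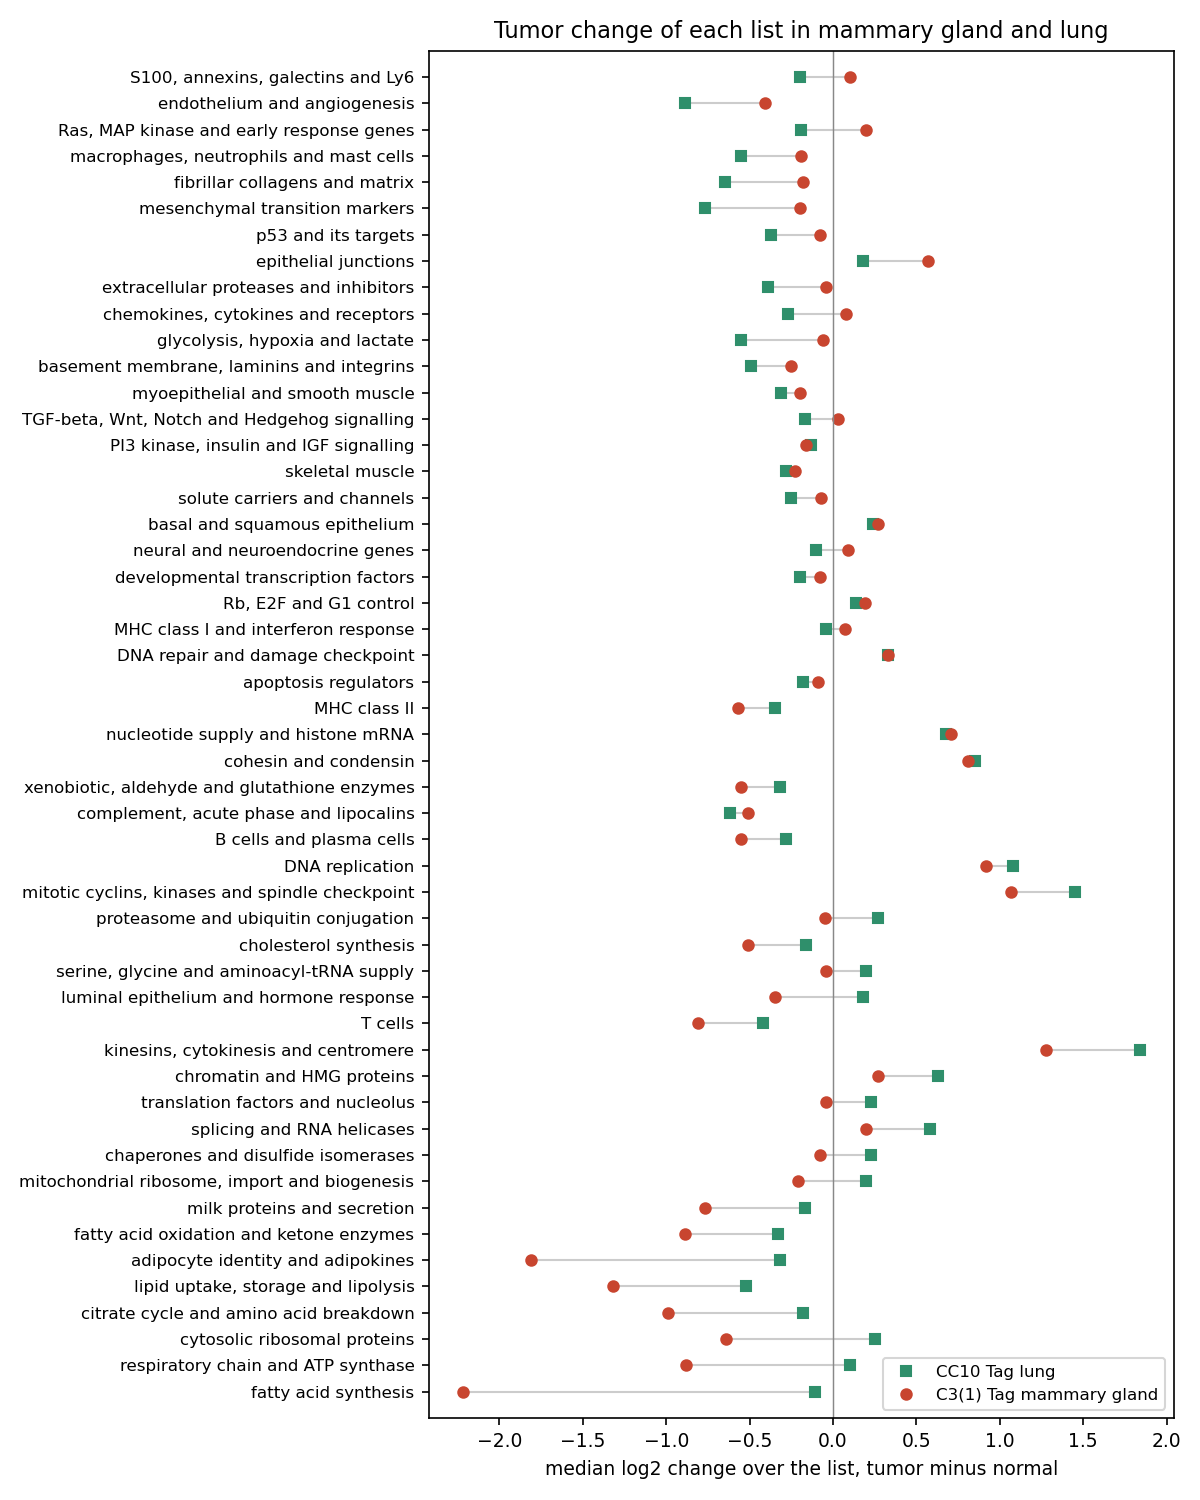
Median log2 change, tumor minus normal, of 51 gene lists in C3(1) Tag mammary gland (red circles) and CC10 Tag lung (green squares), in order of the median difference between the tissues. Fatty acid synthesis lies furthest apart, at -2.22 in mammary gland and -0.11 in lung, while DNA replication, at 0.92 and 1.08, lies close together.

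Samples within a group were not alike. Skeletal muscle genes varied most: fast troponin C (Tnnc2) gave 0.22, 0.45, 4.66 and 5.85 on normal arrays 1 to 4 and 2.16, 2.23, 4.49 and 0.63 on tumor arrays 1 to 4. Normal arrays 3 and 4 and tumor array 3 were high, and the change was -0.42 ± 0.81 (adjusted p = 0.742). Of 23 muscle genes 1 rose and none fell, but 6 rose among the 3 normal and 3 tumor arrays with neighbouring array numbers, and 11 once normal arrays 3 and 4 were left out (Tnnc2 then rose by 2.04). Ucp1, which makes heat in brown fat, read 3.60, 2.61, 2.44 and 6.06 in normal gland and 2.07, 4.16, 3.91 and 0.23 in tumor, with normal array 4 the highest and tumor array 4 the lowest (change -1.08 ± 0.54, adjusted p = 0.119). Rab27b, a GTPase of secretory vesicles, had -0.39, -0.22, -0.29 and 0.06 against 0.65, 0.21, 0.06 and 3.62. Tumor array 4 alone made most of its rise of 1.34 ± 0.38, which was 0.52 without that array, and the direct arrays gave -0.64 ± 0.13. Tumor arrays 2 and 3 kept the highest adipocyte means, 0.62 and 0.85, and without both of them 2113 genes were called in place of 2485.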

How the data were processed

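Per the labels, total RNA was extracted with TRIZOL and RNeasy and hybridised to 2-colour cDNA arrays with fixed dyes, none swapped. The deposited values were read as log2 ratios; the authors' normalization is not given in the sources used here, but the reference arrays lie near a median of 0 as deposited, and the direct arrays do not. Features of 1 gene were averaged (6777 genes). The 35 reference arrays were fitted with limma 3.58.1 (R 4.3.3), with a mean for each of 8 groups, at least 3 values per group, and Benjamini-Hochberg adjustment over all genes tested (adjusted p below 0.05). The contrast with lung came from the same fit. The 38 direct arrays of all models were centred on their medians and fitted together, and the C3(1) Tag mean was tested against 0. Named genes were the 20 largest rises and 20 largest falls without overlap, up to 8 called and 3 uncalled members of each list, its first 4 measured members, all members of the Rb and p53 lists, the 8 genes with the largest SD in each group and the 8 largest differences from lung each way; C1qb, Cdh2, Cyp1b1, Dusp2, Gins1, Krt8, Prdx4, Trp63, Ube2c, Wap and Zwint were added after their values were seen. The genes and lists were chosen with earlier results of these data known. Alternatives covered centring, quantile normalization, left-out arrays, a replicate block, array number, a muscle covariate and filters.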

Additional observations from a re-analysis of the deposited data

Results flagged for a closer look

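Among the 4 arrays of a group, 211 sets of values (list means and the genes given by array) were examined for a sample far from the other 3, and 13 were found; chance gives about 5% of such sets. Normal array 1 was the lowest normal sample by a wide gap for the mean of the mitotic list (-1.35) and the kinesin list (-1.44) and the highest for the cohesin list (-0.26). Normal array 4 was the highest for fatty acid oxidation (1.45) and Timp1 (-0.78). Tumor array 1 was the lowest tumor for solute carriers (0.05), Aldh2 (-1.02) and Serpinb5 (2.76). Tumor array 2 was the lowest for the chaperone list (-0.50), Brca1 (-0.07) and Tgfa (0.10) and the highest for the list of macrophages, neutrophils and mast cells (0.66). Tumor array 4 was the highest for Rab27b (3.62).

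The tested difference between the mammary and the lung change was largest upward for Nt5e (3.35), Cpe (3.31), Inmt (3.28), Ankrd1 (3.03), Dusp6 (2.96), Ctla2a (2.92), Prkg2 (2.89) and Macc1 (2.83). It was largest downward for Rbp4 (-4.77), Glycam1 (-3.75), Me1 (-3.31), Pparg (-3.03), Pcx (-2.96), Car2 (-2.93), Thrsp (-2.93) and Plaat3 (-2.86). These genes were chosen as the largest of the called differences.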

How the results depend on the processing

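The 2485 genes called on the reference arrays became 2508 with each array centred, 2824 after quantile normalization (2370 shared), 2192 to 2451 without 1 of the 8 arrays, 2185 with array number as a factor and 2117 among the 3 normal and 3 tumor arrays with neighbouring numbers. An unadjusted p under 0.001 with at least a 2-fold change left 506, and the cause of that lower count is the stricter rule. The counts were 1871 without normal arrays 3 and 4 and 2113 without tumor arrays 2 and 3; both settings were chosen after seeing the data. The labels do not say whether replicate numbers pair the samples. The correlation of same-numbered samples, as deviations from their group means, was -0.16, -0.10, 0.23 and -0.15. Of the 4 tumors 1 (tumor 3) correlated best with its own number. Tumor and gland differ in make-up, so these values cannot settle whether samples were paired. With the replicate number as a block 1837 genes were called, against 2134 without it on the same 8 arrays. The 1635 differences from lung became 1429 to 1618 without 1 array, 1973 after quantile normalization and 1346 with a replicate block. The 2413 direct calls became 1690 to 2250 without 1 array (fewest without direct array 2) and 1998 with only the 5 C3(1) Tag arrays fitted. With 50 bases after the start included, E2F matches in replication genes went from 8 to 13 and CHR matches in mitosis genes from 9 to 21; the cause was not tested. No named gene reversed a called change between mammary tumor and normal gland on the reference arrays under the alternatives run on genes. Reversals of single genes were not examined for the direct arrays or the difference from lung. The 4 arrays a group limit the precision, and the labels do not tie samples to mice. Only 631 genes had more than 1 cDNA feature, so most genes, Ube2c included, have no second probe.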
